A study of Homo sapiens with 6 samples.

Results

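Aminoacyl-tRNA synthetases are the enzymes that load each tRNA with its amino acid, the step that fixes the genetic code in translation. The genes were taken by symbol: a single-letter amino acid code followed by ARS, with or without a closing 2, together with EPRS, which carries the glutamate and proline activities in one chain, and FARSA and FARSB, the paired subunits of the cytosolic phenylalanine enzyme. This rule used no measured value and found 37 of the 18625 genes listed. Of these, 20 were counted as cytosolic, and 17, with symbols that end in 2, as mitochondrial. All 37 had a mean normalized count of at least 10 over the 6 libraries and entered the test. The files spell the cytosolic genes in the older way, so that RARS is the gene now called RARS1.

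Cytosolic and mitochondrial protein synthesis use different tRNAs, and most amino acids therefore have a pair of nuclear genes, whose mitochondrial product is imported into the organelle. GARS and KARS are the exceptions that make both enzymes from a single gene, and mitochondria have no glutamine enzyme because they amidate glutamyl-tRNA instead. In the cytosol, EPRS, IARS, LARS, MARS, QARS, RARS, KARS and DARS are held in the multisynthetase complex by the scaffold proteins AIMP1, AIMP2 and EEF1E1. Many of the cytosolic genes are known targets of ATF4, the transcription factor that raises amino acid supply and tRNA charging when cells lack amino acids or are stressed.

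The samples were NB4 cells, a human acute promyelocytic leukemia line, kept for 3 days with DMSO, the vehicle, or with Tan I (tanshinone I, a diterpene quinone of Salvia miltiorrhiza) at 10 µM. Each group had 3 RNA-seq libraries, all from this single line, and the labels give no genetic change in either group. The labels do not say whether the libraries came from separate cultures, so the p-values measure the spread between these libraries, which may be technical. The comparison of Tan I with DMSO asks which transcripts differ after the treatment, and the comparison of cytosolic with mitochondrial genes asks whether the synthetases of the 2 compartments differ in level or in response.

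The libraries held 25356503 to 31679138 reads on the listed genes with DMSO and 21502760 to 24298627 with Tan I. In a principal component analysis of the genes tested, the first component took 70.8% of the variance, and its scores did not separate the groups: DMSO 2 (41.1) and Tan I 3 (71.6) lay at the high end, and DMSO 1 (-48.0) and Tan I 1 (-46.8) at the low end. The promyelocytic genes MPO, PRTN3, AZU1, CTSG and CD33 were present at mean normalized counts from 1554 to 49595, and 2 B cell genes were at 77.7 and 93.0. The T cell genes CD3D, CD2 and CD3E were at 313, 61.5 and 10.3 with DMSO and at 371, 80.5 and 13.6 with Tan I. None of these 3 was called, though the groups did not overlap for CD2, as for 7.89% of all genes tested. MPO, the myeloperoxidase of azurophil granules, was 62588 ± 1950 with DMSO and 36602 ± 3112 with Tan I (SD, n = 3). MPO and CTSG were called lower, as were 1.1% of all genes tested. PRTN3, AZU1 and CD33 were not called, with log2 fold changes of -0.32, -0.25 and 0.07. The part of the differences in MPO and CTSG in the values of the synthetases was not tested.

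Few synthetases differed between Tan I and DMSO by the test. A gene was called where the limma p-value, not adjusted, was at most 0.05 and the log2 fold change, Tan I against DMSO, at least 0.25 in size. These are the thresholds of the study, set there for another test. RARS was called higher, no member was called lower and 36 of 37 were not called, while 2.42% of the 16887 genes tested were called, 1.32% higher and 1.1% lower. A single call among 37 genes is close to that background. After Benjamini-Hochberg adjustment over all genes tested, 0 of 37 members and 0 of 16887 genes passed with limma (adjusted p = 0.999 for every member), where 1 member and 410 genes had an unadjusted p of at most 0.05. edgeR on the recovered reads also gave 0 adjusted calls, and DESeq2 gave 16, none of them a synthetase.

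The intervals show how large a change these libraries could have missed. The 95% confidence interval of the log2 fold change lay within 1 either way for 36 of the 37 members and within 0.5 for 26, and the median standard error of a member was 0.135 against 0.224 over all genes tested. The exception was PARS2, which had few reads and normalized counts from 41.4 to 141 over the libraries. SARS2 had similarly few reads, and its interval ran from -0.54 to 0.51. A change of 2-fold was therefore outside the interval of every member except PARS2, and a change of 0.5 on the log2 scale was outside it for 26 of 37.

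**Figure D1:**
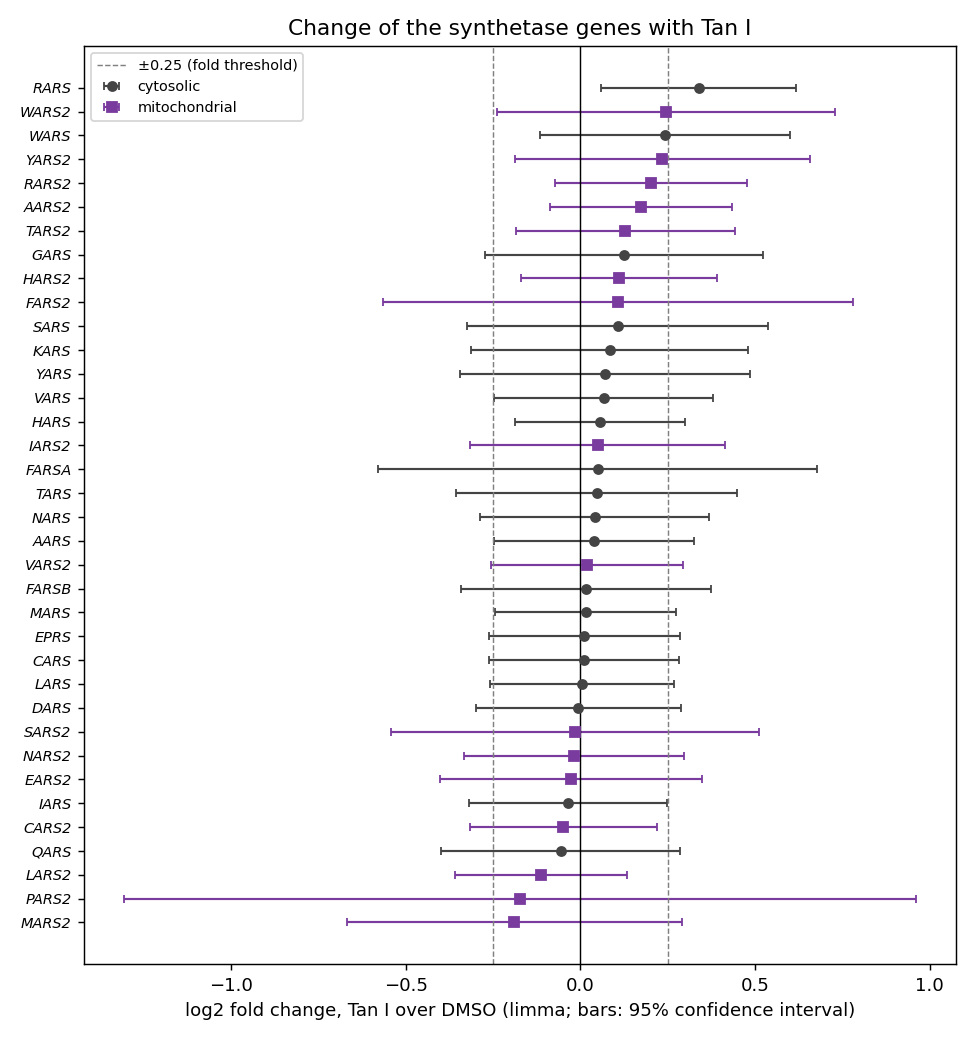
Log2 fold change with Tan I against DMSO for 36 of the synthetase genes from limma, with bars for the 95% confidence interval (n = 3 libraries a group), cytosolic genes as circles and mitochondrial genes as squares. The interval of RARS, from 0.06 to 0.62, is the one that excludes 0, and that of PARS2 is the widest.

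RARS charges tRNA with arginine and sits in the multisynthetase complex. Its normalized counts were 3422, 3562 and 3372 with DMSO and 4028, 4171 and 4957 with Tan I. Every Tan I library lay above every DMSO library, and Tan I 3 was the highest. The means were 3452 ± 98.2 and 4385 ± 500 (SD, n = 3), a 1.27-fold difference and a log2 fold change of 0.34 ± 0.12 (SE), with a 95% interval from 0.06 to 0.62 (unadjusted p = 0.0235 in limma and p = 0.1 in the exact two-sided permutation test, the smallest that 3 against 3 libraries allow). In a bulk library, more RNA per cell and a larger share of cells that carry the RNA cannot be told apart.

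The call of RARS was lost in 3 of the 6 fits that left out a library. The log2 fold change was 0.33 without DMSO 1, 0.32 without DMSO 3 and 0.248 without Tan I 3, the last also under the threshold of 0.25. Each time the unadjusted limma p-value passed above 0.05 and the call was lost. Without DMSO 2, the other library at the high end of the first component, it was 0.36 and the call stood, as it did without Tan I 1 (0.40) and without Tan I 2 (0.37). When the score on the first component was added to the model, the log2 fold change was 0.30 and the limma adjusted p = 0.0358. This was the one setting in which a member passed adjustment (adjusted p from 0.0358 to 1 over the alternatives). The score came from these same libraries. With it in the model, 1496 genes were called and 194 passed adjustment, against 408 and 0 without it. The direction was the same in all 17 alternatives, from 0.248 to 0.398.

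RARS lies on chromosome 5 at 168486451 to 168519301 (GRCh38, GENCODE 44, plus strand), its canonical transcript has 15 exons and 2122 bases, and no other annotated gene overlaps it. The 230 bases upstream of the annotated gene start are shown because this is the gene that was called. They were taken from RefSeq (GRCh38.p14, plus strand, chr5:168486221-168486450), and the capitals mark the letters of an ETS factor site, CCGGAAG, read here on the other strand.
RARS upstream: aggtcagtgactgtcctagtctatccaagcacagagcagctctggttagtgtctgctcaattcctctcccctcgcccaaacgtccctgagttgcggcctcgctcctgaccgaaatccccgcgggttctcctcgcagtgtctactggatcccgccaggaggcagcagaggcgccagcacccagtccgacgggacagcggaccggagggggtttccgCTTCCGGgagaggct
Promoter windows, from 250 bases before to 50 after a RefSeq start, were found for 30 of the 37 members. The letters CCGGAAG, on either strand, occurred in the windows of 16 of these 30 genes, 9 of 16 cytosolic and 7 of 14 mitochondrial, and in 12.2% of all 27305 genes with a window. RARS therefore shared these letters with genes whose log2 fold changes lay near 0 as well as with WARS.

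RARS2, the mitochondrial arginine enzyme, had normalized counts of 947, 1075 and 924 with DMSO and 1091, 1087 and 1210 with Tan I. The groups did not overlap, though DMSO 2 lay just under the lowest Tan I library. The log2 fold change was 0.20 with an interval from -0.07 to 0.48, and no call was made (982 ± 81.1 and 1129 ± 69.8, exact permutation p = 0.1). Of all members, RARS and RARS2 had the smallest p-values.

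AARS2, the mitochondrial alanine enzyme, had 509, 530 and 534 with DMSO and 610, 567 and 597 with Tan I in normalized counts. Its libraries were tightly grouped and did not overlap between the groups. The log2 fold change was 0.17 with an interval from -0.09 to 0.43 (exact permutation p = 0.1). LARS2, the mitochondrial leucine enzyme, was the one member whose libraries lay lower with Tan I without overlap, at 951, 951 and 990 against 941, 865 and 868. Tan I 1 lay just under the DMSO libraries, the log2 fold change was -0.11, and the interval ran from -0.36 to 0.13 (exact permutation p = 0.1). In all, the groups did not overlap for 3 members higher with Tan I (RARS, RARS2 and AARS2) and 1 lower (LARS2), and overlapped for 33, where 7.89% of all genes tested did not overlap, 3.92% higher and 3.97% lower.

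WARS, the cytosolic tryptophan enzyme, is known for its induction by interferon. Its normalized counts were 4600, 6022 and 5619 with DMSO and 5869, 5937 and 7377 with Tan I. DMSO 2 exceeded the lower Tan I libraries, so the groups overlapped. The log2 fold change was 0.24 with an interval from -0.12 to 0.60 (exact permutation p = 0.3). WARS2, its mitochondrial counterpart, had 218, 316 and 278 with DMSO and 272, 297 and 396 with Tan I. The order of the libraries within each group was like that of WARS in Tan I, where replicate 3 was highest, and in DMSO, where replicate 1 was lowest. The log2 fold change was 0.25 with an interval from -0.24 to 0.73 (exact permutation p = 0.5).

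YARS2, the mitochondrial tyrosine enzyme, had normalized counts of 603, 695 and 589 with DMSO and 647, 652 and 955 with Tan I. Tan I 3 alone lay above the DMSO libraries. The log2 fold change was 0.23 and its interval from -0.19 to 0.66 held 0 (exact permutation p = 0.3). TARS2, the mitochondrial threonine enzyme, had 1554, 1763 and 1658 with DMSO and 1577, 1805 and 2082 with Tan I. The groups overlapped, and the log2 fold change was 0.13 with an interval from -0.19 to 0.44 (exact permutation p = 0.4).

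GARS and KARS, which serve both compartments, had groups that overlapped and a shared order of libraries. GARS, the glycine enzyme, had normalized counts of 6138, 8247 and 6950 with DMSO and 6677, 7368 and 9248 with Tan I. KARS, the lysine enzyme, had 7619, 9748 and 8561 with DMSO and 7620, 9052 and 10963 with Tan I. In both genes DMSO 2 and Tan I 3 were the highest libraries and DMSO 1 the lowest. The log2 fold changes were 0.12 (interval -0.27 to 0.52) and 0.08 (interval -0.31 to 0.48).

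That pattern ran through much of the family. DMSO 2 and Tan I 3 were the 2 highest libraries for 20 of the 37 members, 14 of 20 cytosolic and 6 of 17 mitochondrial, against 26.5% of all genes tested. Tan I 3 was the highest library of 19 members and DMSO 1 the lowest of 15. Both libraries were the ends of the first component, and the matching shares over all genes were not computed. HARS, HARS2, CARS, CARS2 and VARS2, named here after their values were seen, went the other way and had their lowest value in DMSO 2. The synthetases as a whole took 0.529% ± 0.016 of the reads on listed genes with DMSO and 0.527% ± 0.004 with Tan I (SD, n = 3).

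**Figure D2:**
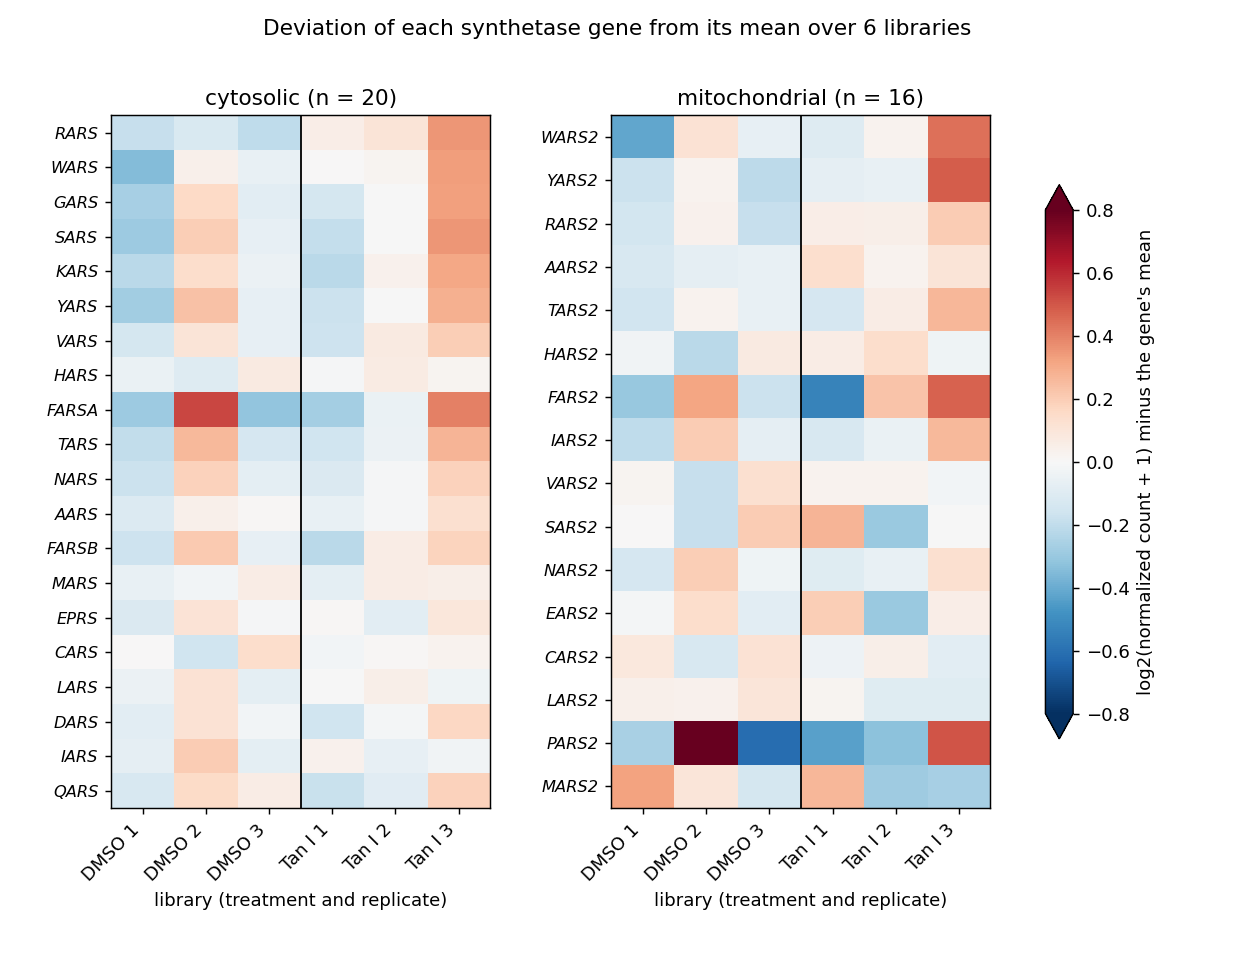
Log2(normalized count + 1) of each gene drawn in each of the 6 libraries, as the difference from the gene's own mean, with 20 cytosolic genes on the left, 16 mitochondrial genes on the right and the vertical line between DMSO and Tan I. Most rows are red in DMSO 2 and in Tan I 3 and blue in DMSO 1, and PARS2 in DMSO 2 lies beyond the color scale.

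The 20 cytosolic genes had a median log2 fold change of 0.04, from -0.06 (QARS) to 0.34 (RARS), and the 17 mitochondrial genes a median of 0.05, from -0.19 (MARS2) to 0.25 (WARS2). The median over all genes tested was -0.0016. A log2 fold change above 0 was seen for 27 members, 17 of them cytosolic and 10 mitochondrial, and for 49.7% of all genes. That count depended on single libraries and on the scaling: it was 12 without Tan I 3, 14 without DMSO 1, 31 without DMSO 2 or without Tan I 1, 19 after quantile normalization and 15 when each library was rescaled to the same total. The rescaling also moved the median of all genes to -0.06, and 27 members lay above that median. Both compartment medians were below 0 after rescaling, at -0.02 and -0.01.

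The level of the cytosolic genes relative to the mitochondrial genes was alike in both groups. The mean log2 level of the cytosolic genes minus that of the mitochondrial genes was 2.83, 2.92 and 2.91 with DMSO and 2.82, 2.96 and 2.94 with Tan I. The groups overlapped, and the group means of 2.89 ± 0.05 and 2.90 ± 0.08 (SD, n = 3) differed by 0.02, less than the spread between libraries. The summed counts of the cytosolic genes exceeded those of the mitochondrial genes 6.75-fold in each group, with an SD of 0.446 with DMSO and 0.332 with Tan I. Quantile normalization, which alters values within a library, turned the difference between groups to -0.05, still within that spread.

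**Figure D3:**
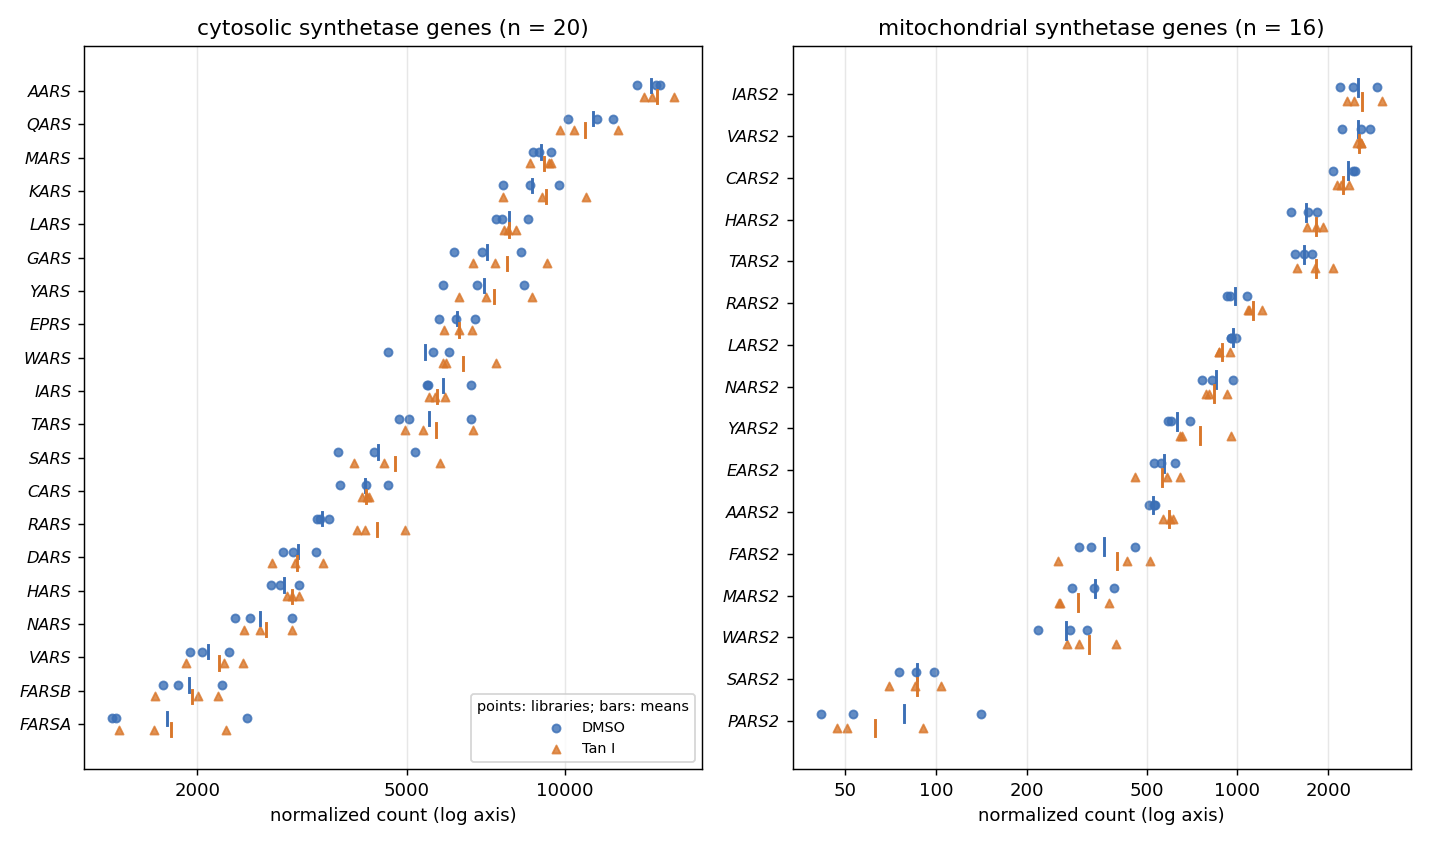
Normalized counts of 20 cytosolic and 16 mitochondrial synthetase genes on log axes, not divided by transcript length, with a point for each library (circles DMSO, triangles Tan I) and a vertical bar for each group mean. The groups lie apart for RARS, RARS2, AARS2 and LARS2 and overlap for the other genes drawn.

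Levels of different genes were compared as normalized counts per kb of the canonical transcript, averaged over the 6 libraries. QARS, the glutamine enzyme of the complex, was highest at 4535 per kb. Its normalized counts were 10126, 12297 and 11510 with DMSO and 9761, 10378 and 12569 with Tan I. The groups overlapped widely, and the log2 fold change was -0.06 with an interval from -0.40 to 0.29. KARS (4484 per kb), AARS (4293), MARS (3236) and GARS (3052) followed. PARS2, the mitochondrial proline enzyme, was lowest at 30.0 per kb, with normalized counts of 53.1, 141 and 41.4 with DMSO and 46.9, 50.6 and 90.7 with Tan I. DMSO 2 stood above the other libraries of its group, and the interval of the log2 fold change of -0.17, from -1.31 to 0.96, was the widest of any member.

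The cytosolic genes had a median of 1746 per kb, from 287 (FARSB) to 4535, and the mitochondrial genes a median of 226 per kb, from 30.0 to 1239 (CARS2). In the order of levels per kb, 29 of the 36 neighbouring pairs had DMSO ranges that overlapped, so most neighbours could not be ranked against each other. Scaling by all exons of a gene in place of the canonical transcript changed the order in places, and HARS moved from place 12 to place 26.

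For the same amino acid, 18 pairs of a cytosolic and a mitochondrial gene could be formed, with EPRS and FARS2 each used in 2 pairs. The cytosolic gene was higher per kb in 17 of 18 pairs, in every library, and in 15 of 18 when all exons set the length. The largest ratio was for serine, where SARS exceeded SARS2 53.4-fold (38.4 to 69.3 over the 6 libraries). EPRS exceeded PARS2 42.9-fold, AARS exceeded AARS2 36.9-fold, MARS exceeded MARS2 31.0-fold and WARS exceeded WARS2 21.0-fold. The ratios were near 1 for cysteine (CARS over CARS2, 1.23) and for FARSB over FARS2 (1.27), and valine was the exception, with VARS at 0.739 of VARS2 (0.645 to 0.901). The ratios depended on the transcript model, since 12 of 18 moved by over 1.5 times when all exons set the length. AARS over AARS2 was then 13.5, MARS over MARS2 12.3, FARSB over FARS2 3.66 and RARS over RARS2 19.2 in place of 3.92. HARS and IARS fell below their mitochondrial counterparts, at 0.445 and 0.418.

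Annotated overlaps touch some of these values. VARS2 shares 4073 exon bases with the same-strand lncRNA ENSG00000288473, and SARS2 shares 1492 with the same-strand gene ENSG00000269547. Reads in those bases may have been dropped or given to either gene, and the part of this in the ratios of VARS over VARS2 and SARS over SARS2 was not tested. MARS shares 355 exon bases with DDIT3 and HARS shares 1090 with WDR55, each on the opposite strand. Whether these reach the counts depends on the strand setting of the counting, which is not given in the sources used here.

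The ratio within a pair was also compared between the treatments. For arginine, the log2 ratio of RARS to RARS2 in normalized counts was 1.85, 1.73 and 1.87 with DMSO and 1.88, 1.94 and 2.03 with Tan I. The groups did not overlap but nearly met, and the means of 1.82 ± 0.08 and 1.95 ± 0.08 differed by 0.14 (exact two-sided permutation p = 0.1, the smallest the design allows). In the other 17 pairs the groups overlapped. Of single genes, 7.89% of all tested had groups that did not overlap, and no such share was computed for ratios. The 1 pair apart is therefore not read as a trait of arginine.

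**Figure D4:**
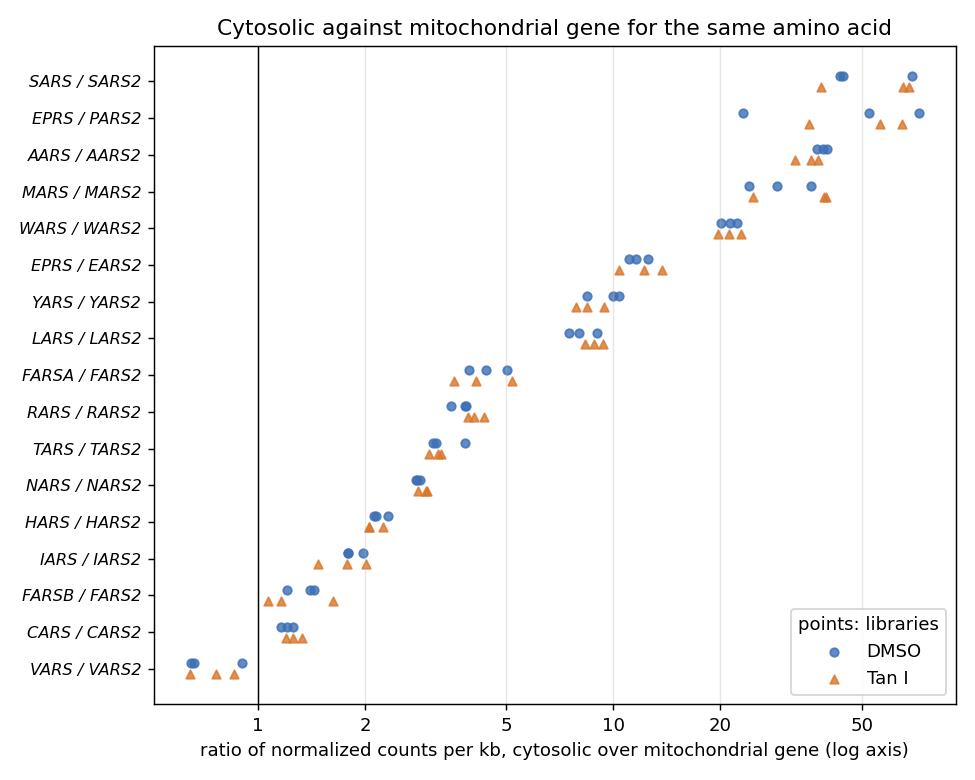
Ratio of the cytosolic to the mitochondrial gene for 17 pairs with the same amino acid, in normalized counts per kb of canonical transcript on a log axis, with a point for each library (circles DMSO, triangles Tan I) and a vertical line at a ratio of 1. The points run from 0.645 for VARS over VARS2 to 72.5 for EPRS over PARS2. DMSO and Tan I points interleave in every pair drawn except RARS over RARS2.

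By role, the 8 enzymes of the multisynthetase complex had a median log2 fold change of 0.01, and RARS was the one called. The 12 cytosolic genes outside the complex had a median of 0.05, all 12 lay above 0, where 49.7% of all genes did, and none was called. That count was 2 of 12 without Tan I 3, 5 without DMSO 1 and 5 after rescaling to equal totals. The scaffolds did not pass the test either. AIMP1, which binds RARS in the complex, was 2263 ± 473 with DMSO and 2722 ± 683 with Tan I (log2 fold change 0.26), EEF1E1 was 479 ± 133 and 607 ± 164 (0.34), and AIMP2 was 373 ± 163 and 348 ± 87.2 (-0.04; SD, n = 3). The 18 class I enzymes, whose catalytic domain is a Rossmann fold, had a median of 0.02, and the 18 class II enzymes, built on an antiparallel sheet, a median of 0.05, with EPRS carrying an active site of each kind.

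The 12 synthetases listed as ATF4-responsive, a list from general knowledge, had a median log2 fold change of 0.04 against 0.05 for the other 8 cytosolic genes. Of these 12, 11 lay above 0 and none was called, but the count above 0 was 2 without Tan I 3, 3 without DMSO 1 and 4 after rescaling to equal totals. ATF4 itself was 17489 ± 1825 with DMSO and 19885 ± 4103 with Tan I (log2 fold change 0.17, exact permutation p = 0.4), and ASNS, the asparagine synthetase that it induces, was 601 ± 173 and 447 ± 190 (-0.47, p = 0.5). Of 22 genes tested in the wider list of ATF4 and the genes it induces, VLDLR, a lipoprotein receptor, was called lower, at 1532 ± 130 and 1268 ± 73.8 (-0.27, unadjusted p = 0.0493 in limma, exact permutation p = 0.1, limma adjusted p = 0.999), and 21 were not called. Over all genes tested, 2.42% were called and 1.1% were called lower, so a single call in a list of 22 is close to that background. The median of the wider ATF4 list was 0.09.

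Upstream sequence was also compared by group, as counts without a test. The letters of a composite C/EBP-ATF site, TGATGNAA, were searched on both strands of the RefSeq windows and occurred in 7 of 10 matched ATF4-responsive genes, in 0 of 6 other cytosolic genes and in 1 of 14 mitochondrial genes, against 4.46% of all genes with a window. Knowledge of such letters may have helped to place a gene on the list in the first place, and a match is not evidence of binding. The 30-base stretches below show them in capitals, each read along the strand of its gene, so that a site on the other strand appears as its reverse complement. They lie at chr5:33440956-33440985 (plus) for TARS, chr7:30594834-30594863 (plus) for GARS, chr9:92293692-92293721 (minus) for IARS, chr11:3057407-3057436 (minus) for CARS, chr12:57488053-57488082 (plus) for MARS, chr16:70289675-70289704 (minus) for AARS, chr18:57621804-57621833 (minus) for NARS and chr12:32756076-32756105 (minus) for the mitochondrial YARS2, all in GRCh38.p14.
TARS: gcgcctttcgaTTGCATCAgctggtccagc
GARS: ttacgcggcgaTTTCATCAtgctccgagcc
IARS: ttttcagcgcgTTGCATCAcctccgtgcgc
CARS: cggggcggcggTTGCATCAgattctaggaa
MARS: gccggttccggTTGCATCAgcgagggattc
AARS: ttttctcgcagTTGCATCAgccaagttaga
NARS: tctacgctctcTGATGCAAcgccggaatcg
YARS2: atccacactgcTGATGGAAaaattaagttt
The 7 cytosolic genes that hold these letters had log2 fold changes of 0.05 (TARS), 0.12 (GARS), -0.04 (IARS), 0.01 (CARS), 0.02 (MARS), 0.04 (AARS) and 0.04 (NARS). None passed the test, and every interval held 0.

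HARS and HARS2, the cytosolic and mitochondrial histidine genes, lie head to head on chromosome 5. Their RefSeq starts, at 140691370 on the minus strand and 140691455 on the plus strand, have 84 bases between them. The same pair of CCGGAAG matches lies in the window of each. Their log2 fold changes were 0.06 and 0.11, and both had DMSO 2 as their lowest library. They share 108 exon bases on opposite strands.

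No gene of the other steps of charging and translation that were listed was called, where 2.42% of all genes tested were. In lists this short, no call is close to that background. XPOT, which exports tRNA from the nucleus, had a log2 fold change of -0.04. None of 4 further genes listed beside the synthetases (TARSL2, AARSD1, SEPSECS and PSTK) was called. Nor was any of QRSL1, GATB, GATC and MTFMT, which amidate glutamyl-tRNA and formylate methionyl-tRNA in mitochondria. None of 5 cytosolic elongation factors tested and none of 9 mitochondrial translation factors was called. TSFM, the mitochondrial elongation factor Ts, named after its values were seen, was the only one of these companions whose groups did not overlap, at 31.7, 33.7 and 28.1 with DMSO and 22.5, 23.2 and 10.7 with Tan I. Its level was low, and its log2 fold change of -0.77 did not pass the test (interval -1.64 to 0.09, exact permutation p = 0.1). Of all genes tested, 7.89% did not overlap between the groups, 3.97% lower with Tan I.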

How the data were processed

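The authors' table of NB4 gene expression was used. According to the study's methods, paired-end reads were aligned to GRCh38 with STAR, multi-mapped reads were removed and genes were counted with featureCounts; versions and annotation release are not given in the sources used here. The deposited values are a signal: read counts divided by a DESeq2 size factor per library. All values in each library (100.0%, tolerance 0.01) were whole multiples of the value of 1 read, and whole reads were recovered from them. Columns of the authors' own comparison in the deposited file (log2 fold change, Wald score and p-value) were not used. The extraction text in the labels names embryos, although the samples are labelled as NB4 cells.

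The sample titles gave each library's group and number. limma 3.58.1 (R 4.3.3) with the mean-variance trend was fitted to log2(normalized count + 1) for 16887 genes with a mean of at least 10 in 6 libraries, with treatment as the only term and Benjamini-Hochberg adjustment. Fold changes are on that log2 scale and understate the change of low genes. edgeR 4.0.16 (quasi-likelihood, TMM) and DESeq2 1.42.0 on the recovered reads were alternatives and called 409 and 420 genes, against 408 with limma. Single genes also had an exact two-sided permutation test. The fits were tested on simulated data. Of the identifiers, 99.6% were found in GENCODE 44, which gave lengths and overlaps; promoters came from RefSeq (GRCh38.p14). For 7 members no window was matched. EEF1G, NUPR1, ELANE, MS4A1, HBB and HBA1 were not analysed here, and ALDH1L2 fell under the filter.

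A member that enters all counts is not reported here by name or drawn. Members and gene lists were chosen with earlier results of these data known. Values were to be given in full for the 8 members with the smallest p-values, WARS, WARS2, GARS, KARS and the members with the most and fewest reads per length, and for scaffolds, ATF4, ASNS and called companions. Alternatives were other pseudocounts (0.1 and 10), filters (none, mean of 50), scalings, fits and thresholds, a replicate block, the first principal component as a covariate, and each library left out.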

Additional observations from a re-analysis of the deposited data

How the results depend on the processing

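Over 37 members and 17 alternatives, 626 of 629 combinations left a member called or not called as before. None reversed a call, and the other 3 were those of RARS given above. As 36 of 37 members were not called, this count says little of their direction. The sign of the log2 fold change was kept in 10 of 17 alternatives for FARSB, the fewest, and in all 17 for RARS. With 1 library left out, the number of members called ranged from 0 (without DMSO 1, without DMSO 3 and without Tan I 3) to 1, and the number of genes called ranged from 160 (without Tan I 2) to 1496 (without Tan I 1), against 408 with all libraries. It was 180 without DMSO 1, 201 without DMSO 3, 271 without Tan I 3 and 556 without the trend. With a log2 fold change of at least 0.5 in place of 0.25, 0 members were called. With the score on the first principal component in the model, 1 member (RARS) passed at an adjusted p-value, and 1496 genes were called, 194 of them adjusted. The split of higher and lower calls was 223 and 185 with the authors' size factors and 188 and 250 after rescaling to equal totals. The medians moved by less than the spread between libraries: with 1 library left out, the cytosolic median ranged from -0.03 to 0.13 and the mitochondrial from -0.02 to 0.13. Without GARS and KARS the cytosolic median was 0.04.

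The correlations of same-numbered deviations were 0.75, -0.09 and -0.45, and 2 of 6 libraries correlated best with their own number. These values showed no steady pairing by replicate number, but with groups of 3 they cannot exclude one. With the replicate block, 1 member and 348 genes were called, and 0 members passed at an adjusted p-value. PARS2 and SARS2 had the fewest reads, 48 to 146 and 64 to 126 a library, and the standard errors of the log2 fold change were widest for PARS2 (0.485), FARS2 (0.288) and FARSA (0.269). Groups of 3 were too small for a test of single outlying libraries.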
